A study of Homo sapiens with 15 samples.

Results

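The genes described here set the brake and the drive of the G1 phase of the cell cycle: the CDK inhibitors CDKN1A (p21), CDKN1B (p27), CDKN2A (p16 and ARF), CDKN2B (p15) and CDKN2C (p18), the D cyclins CCND1 and CCND2, their kinases CDK4 and CDK6, and RB1. They were taken as the rows of the count table whose Ensembl ID maps to these symbols, which gave 10 of 57736 genes, each with 1 row. All 10 passed the filter on low counts. RNA was measured in 15 libraries, 3 for each of 5 groups of IMR90, a fibroblast line grown out of human fetal lung. In 4 groups the cells carried a retrovirus for RAS; in fibroblasts this oncogene sets off senescence, in which cells stay alive but no longer divide. Of these, wild-type add-back cells received an siRNA against METTL14 and a lentivirus with wild-type METTL14. R298P add-back cells received that siRNA and a lentivirus with METTL14 that carries the R298P substitution, and knockdown cells received that siRNA and what the labels name a vector. The siControl RAS cells received a non-targeting siRNA. The fifth group, called control below, carried the vector retrovirus and the non-targeting siRNA. With METTL3, METTL14 forms the enzyme that places N6-methyladenosine on RNA, and R298P is known to weaken that activity. All groups were given siRNA on day 4 after the retrovirus and again on the day after, and were harvested 48 hours later. The titles speak of METTL14 knockout and knock-in, and of a control knockout for siControl RAS cells, whereas the protocols describe siRNA and lentivirus; the names used here follow the protocols. The labels name a lentiviral vector for knockdown cells and none for siControl RAS or control cells, so an effect of that vector and of the METTL14 siRNA cannot be told apart in the knockdown comparison. The labels do not say which RAS was used, nor whether a group's 3 libraries stand for separate cultures. The p-values therefore measure the spread between libraries, which may be technical.

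D cyclins switch on CDK4 and CDK6, which begin the phosphorylation of RB; phosphorylated RB lets go of the E2F factors, and these turn on the genes of DNA replication. INK4 proteins (p15, p16, p18) bind CDK4 and CDK6 and keep D cyclins off them, whereas CIP/KIP proteins (p21, p27) bind finished cyclin-CDK complexes and block CDK2 above all. In senescent fibroblasts p16 and p21 are the best known arms of the arrest, p16 as the product of a locus that Polycomb proteins keep silent in dividing cells. RNA levels do not show the phosphorylation of RB, and p27 is governed to a large part by the breakdown of the protein.

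Levels are CPM, counts scaled to a common library size with TMM factors, with n = 3 libraries a group, and changes are on the log2 scale unless named as a fold. Calls rest on the quasi-likelihood test of edgeR (two-sided), with p adjusted by Benjamini and Hochberg's method over 13516 genes and a threshold of 0.05. Library totals ran from 4917661 to 7763084 counts, so 1 count stood for 0.129 to 0.203 CPM. METTL14 checked the labels: it stood at 508.5, 563.6 and 564.2 CPM in wild-type add-back libraries, 891.7, 906.6 and 1038 CPM in R298P add-back libraries, 9.35, 4.94 and 3.94 CPM in knockdown libraries, 26.2, 19.3 and 20.5 CPM in siControl RAS libraries and 19.1, 21.3 and 23.3 CPM in control libraries. Replicate 1 of the knockdown group stood apart on the third principal component, at -54.4 against -9.88 to 25.6 for the other 14 libraries. All 9 fibroblast markers were tested, and summed to 20490 to 21840 CPM in wild-type add-back, 19950 to 21100 CPM in R298P add-back, 18190 to 19020 CPM in knockdown, 22110 to 23150 CPM in siControl RAS and 10570 to 10750 CPM in control libraries. CDH1, KRT5, KRT14, CDH5, ERG, CD3E and LYZ had 0 counts in all libraries and PTPRC never exceeded 2 counts. TEK, an endothelial marker, reached 244 counts and CD68, a macrophage marker, 130 counts in a library. Of 6 endothelial markers 5 matched, and TEK held nearly all of their sum, as VWF and KDR reached at most 1.014 and 0.636 CPM. The endothelial markers summed to 23.7 to 36.7 CPM in wild-type add-back, 34.5 to 39.6 CPM in R298P add-back, 30.7 to 37.4 CPM in knockdown, 23.6 to 30 CPM in siControl RAS and 13.6 to 19.8 CPM in control libraries. The leukocyte markers summed to 10.6 to 14.8 CPM in wild-type add-back, 10.5 to 12.3 CPM in R298P add-back, 6.02 to 14.3 CPM in knockdown, 14 to 23.7 CPM in siControl RAS and 2.97 to 7.97 CPM in control libraries. The 9 epithelial markers, of which KRT18 and KRT19 hold the most, summed to 76.4 to 85.7 CPM in wild-type add-back, 69.3 to 80.3 CPM in R298P add-back, 84.6 to 95.4 CPM in knockdown, 44.9 to 65.9 CPM in siControl RAS and 137.5 to 151.3 CPM in control libraries. Control libraries lay apart from all RAS libraries in the fibroblast, endothelial and epithelial sums, whereas the leukocyte sum overlapped between control and knockdown. Among the RAS groups each of the 4 sums overlapped between some groups. The part of these sums in the results below was not tested. In bulk RNA, fewer cells with a transcript and less of it per cell cannot be told apart.

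Set against control, siControl RAS cells show how these genes stood in cells given the oncogene. The inhibitors did not move together: p15, p21 and the CDKN2A gene were higher in RAS cells, p18 fell to a few CPM, and p27 was not called. The D cyclins went in opposite directions, with CCND2 13.9-fold higher and CCND1 1.39-fold lower. CDK4 fell while CDK6 was marginally higher, and RB1 was not called. In all 5 of the 10 genes were called higher and 3 lower, against 24% and 21.9% of all genes tested (45.9% in both directions), and the libraries of these 8 did not overlap with control, as for 54.2% of all genes. The median size of change, regardless of sign, was 0.81 for the 10 genes and 0.55 for all genes.

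Among the CIP/KIP inhibitors, CDKN1A had 1788, 1676 and 1848 CPM in siControl RAS libraries, against 686.5, 702.3 and 670.7 CPM in control. The groups lay far apart, with a change of 1.37 ± 0.058 (SE; adjusted p = 2.79e-20). CDKN1B had 18.4, 17.1 and 18.7 CPM in siControl RAS libraries, against 11.6, 17.5 and 21.3 CPM in control. The RAS libraries lay inside the control range (log2 difference 0.11, 95% interval -0.40 to 0.62, adjusted p = 0.756). Without control replicate 1 that difference was -0.11.

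Among the INK4 inhibitors, CDKN2B had 46.2, 57 and 45.1 CPM in siControl RAS libraries, against 4.85, 2.8 and 2.33 CPM in control. It rose 14.7-fold (log2 3.87 ± 0.231, adjusted p = 4.06e-16), from 62 counts over the control group. Its neighbour on chromosome 9, CDKN2A, had 155.8, 174 and 170.2 CPM in siControl RAS libraries, against 98.1, 77.7 and 94.5 CPM in control, and rose 1.85-fold (adjusted p = 8.65e-08). Both genes were apart from control in every RAS library, with a fitted change of 3.87 for CDKN2B and 0.89 for CDKN2A. CDKN2C went the other way, with 0.545, 4.68 and 0.535 CPM in siControl RAS libraries, against 21.7, 25.04 and 20 CPM in control (log2 change -3.58 ± 0.576, adjusted p = 1.51e-05). Most of the RAS counts came from replicate 2, and without it the change was -5.31 (adjusted p = 4.91e-09). CDKN2C was the one inhibitor of the 5 that was called lower in RAS cells.

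CDKN2A makes p16 and ARF from separate starts that share their 3′ exons, so 3′ tags count both as 1 gene. The exons of CDKN2B-AS1, an antisense RNA of the locus, overlap those of CDKN2A in GENCODE 29, and the sources used here do not say whether counting used strand. CDKN2B-AS1 itself had 10 counts in knockdown, 24 in siControl RAS and 0 in control libraries, so few of the locus's tags were assigned to it. The 250 bases before the start are given for the inhibitors that rose and for CDK4, which fell, from RefSeq on GRCh38.p14. Of the 10 genes 8 matched the RefSeq promoter table. Each runs 5′ to 3′ on the gene's strand, and capitals mark GC boxes (GGGCGG) and E-boxes (CACGTG) on either strand. The windows are chr6:36678464-36678713 (plus strand) for CDKN1A, chr9:22009306-22009555 (minus) for CDKN2B, chr9:21995325-21995574 (minus) for the ARF start and chr9:21974858-21975107 (minus) for the p16 start of CDKN2A, and chr12:57752311-57752560 (minus) for CDK4.
CDKN1A: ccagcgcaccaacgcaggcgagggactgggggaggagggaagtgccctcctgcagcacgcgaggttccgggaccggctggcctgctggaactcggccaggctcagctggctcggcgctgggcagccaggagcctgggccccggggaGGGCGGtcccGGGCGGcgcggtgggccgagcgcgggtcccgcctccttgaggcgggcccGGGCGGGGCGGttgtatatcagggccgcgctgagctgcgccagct
CDKN2B: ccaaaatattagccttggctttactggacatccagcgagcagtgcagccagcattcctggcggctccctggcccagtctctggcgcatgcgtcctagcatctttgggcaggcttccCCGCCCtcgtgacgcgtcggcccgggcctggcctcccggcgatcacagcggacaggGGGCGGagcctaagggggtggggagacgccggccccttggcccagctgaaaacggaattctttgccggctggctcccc
CDKN2A, ARF start: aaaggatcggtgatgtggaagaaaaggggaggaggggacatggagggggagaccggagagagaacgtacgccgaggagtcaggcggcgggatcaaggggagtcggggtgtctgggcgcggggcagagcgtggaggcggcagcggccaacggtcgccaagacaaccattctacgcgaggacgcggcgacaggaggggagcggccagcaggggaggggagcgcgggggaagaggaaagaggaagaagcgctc
CDKN2A, p16 start: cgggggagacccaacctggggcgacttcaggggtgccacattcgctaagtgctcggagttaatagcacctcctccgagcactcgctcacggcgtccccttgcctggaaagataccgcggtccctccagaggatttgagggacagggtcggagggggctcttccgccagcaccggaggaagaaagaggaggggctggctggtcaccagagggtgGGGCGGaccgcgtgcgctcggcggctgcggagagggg
CDK4: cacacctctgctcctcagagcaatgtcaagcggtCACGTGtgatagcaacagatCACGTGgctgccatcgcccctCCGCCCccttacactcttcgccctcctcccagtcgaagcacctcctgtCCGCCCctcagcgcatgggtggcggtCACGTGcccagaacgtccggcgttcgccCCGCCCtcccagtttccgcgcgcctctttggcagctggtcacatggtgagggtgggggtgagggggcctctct
GC boxes, the letters that SP1 binds, occur 4 times before CDKN1A, counting overlaps, 2 times before CDKN2B, 1 time before the p16 start, 3 times before CDK4 and 0 times before the ARF start; 42.6% of 35116 RefSeq promoter windows of this length hold at least 1. The CDK4 window also holds 3 E-boxes, the letters bound by MYC, 216, 196 and 101 bases before the start, against 6.34% of all windows with any. An E2F site (TTTCCCGC or TTTGGCGC, either strand; 1.93% of all windows) was not found in these 5 windows, nor was a cell cycle homology region (TTTGAA, 13.3%), an AP-1 site (TGACTCA or TGAGTCA, 4.2%), a cyclic AMP response element (TGACGTCA, 1.65%) or a TATA box (TATAAA, 10.7%). The GC share was 76.4% for CDKN1A, 66.4% for CDKN2B, 66.8% for each start of CDKN2A and 65.6% for CDK4, with a median of 58% over all windows. CDKN2C also fell, and its windows are not printed here. They hold E-boxes 220 and 69 bases before separate starts, so E-boxes were not particular to CDK4.

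Of the D cyclins, CCND2 was low in control cells and far higher in RAS cells. It had 165, 176.5 and 177 CPM in siControl RAS libraries, against 11.6, 8.89 and 16.8 CPM in control (log2 change 3.80 ± 0.120, adjusted p = 3.72e-22). In GENCODE 29 the exons of CCND2 overlap those of AC008012.1 on the same strand and of CCND2-AS1 on the other. AC008012.1 has no row in the count table, so its tags cannot be told apart, and CCND2-AS1 had 0 counts over all 15 libraries. CCND1, the D cyclin with the most counts in every library, had 1727, 1700 and 1710 CPM in siControl RAS libraries, against 2438, 2456 and 2236 CPM in control. That change was small and clear of the spread, at -0.47 ± 0.051 (adjusted p = 1.15e-09). The exons of LTO1 overlap those of CCND1 on the other strand in GENCODE 29, and LTO1 had 284 counts over the siControl RAS group, against 31343 for CCND1; LTO1 was itself lower in RAS cells (-0.80, adjusted p = 0.00746). CCND3, the remaining D cyclin, was also lower in RAS cells (-0.54, adjusted p = 0.000109).

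The kinases parted as well. CDK4 had 113.2, 96.5 and 97.1 CPM in siControl RAS libraries, against 168, 171.8 and 170.7 CPM in control, and fell 1.66-fold (adjusted p = 1.72e-08). Its exons overlap those of TSPAN31 on the other strand; TSPAN31 had 327 counts over the siControl RAS group and 261 in control (0.34, adjusted p = 0.232). CDK6 had 532.9, 519.9 and 481.1 CPM in siControl RAS libraries, against 480.9, 451.6 and 408.5 CPM in control. A non-coding gene whose exons overlap CDK6 on the other strand had 101 counts over all 15 libraries. The lowest RAS library lay just above the highest control library, at a change of 0.19 (adjusted p = 0.0288). The call on CDK6 did not hold without control replicate 2 (0.20, adjusted p = 0.0597), control replicate 3 (0.13, 0.197), siControl RAS replicate 1 (0.16, 0.113) or siControl RAS replicate 2 (0.18, 0.0804), nor with upper-quartile factors (0.16, 0.0768). RB1 had 40.2, 53.02 and 43.7 CPM in siControl RAS libraries, against 44.4, 53.04 and 49.6 CPM in control. The groups overlapped, and the difference was -0.11 with a 95% interval of -0.45 to 0.24 (adjusted p = 0.642).

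**Figure D1:**
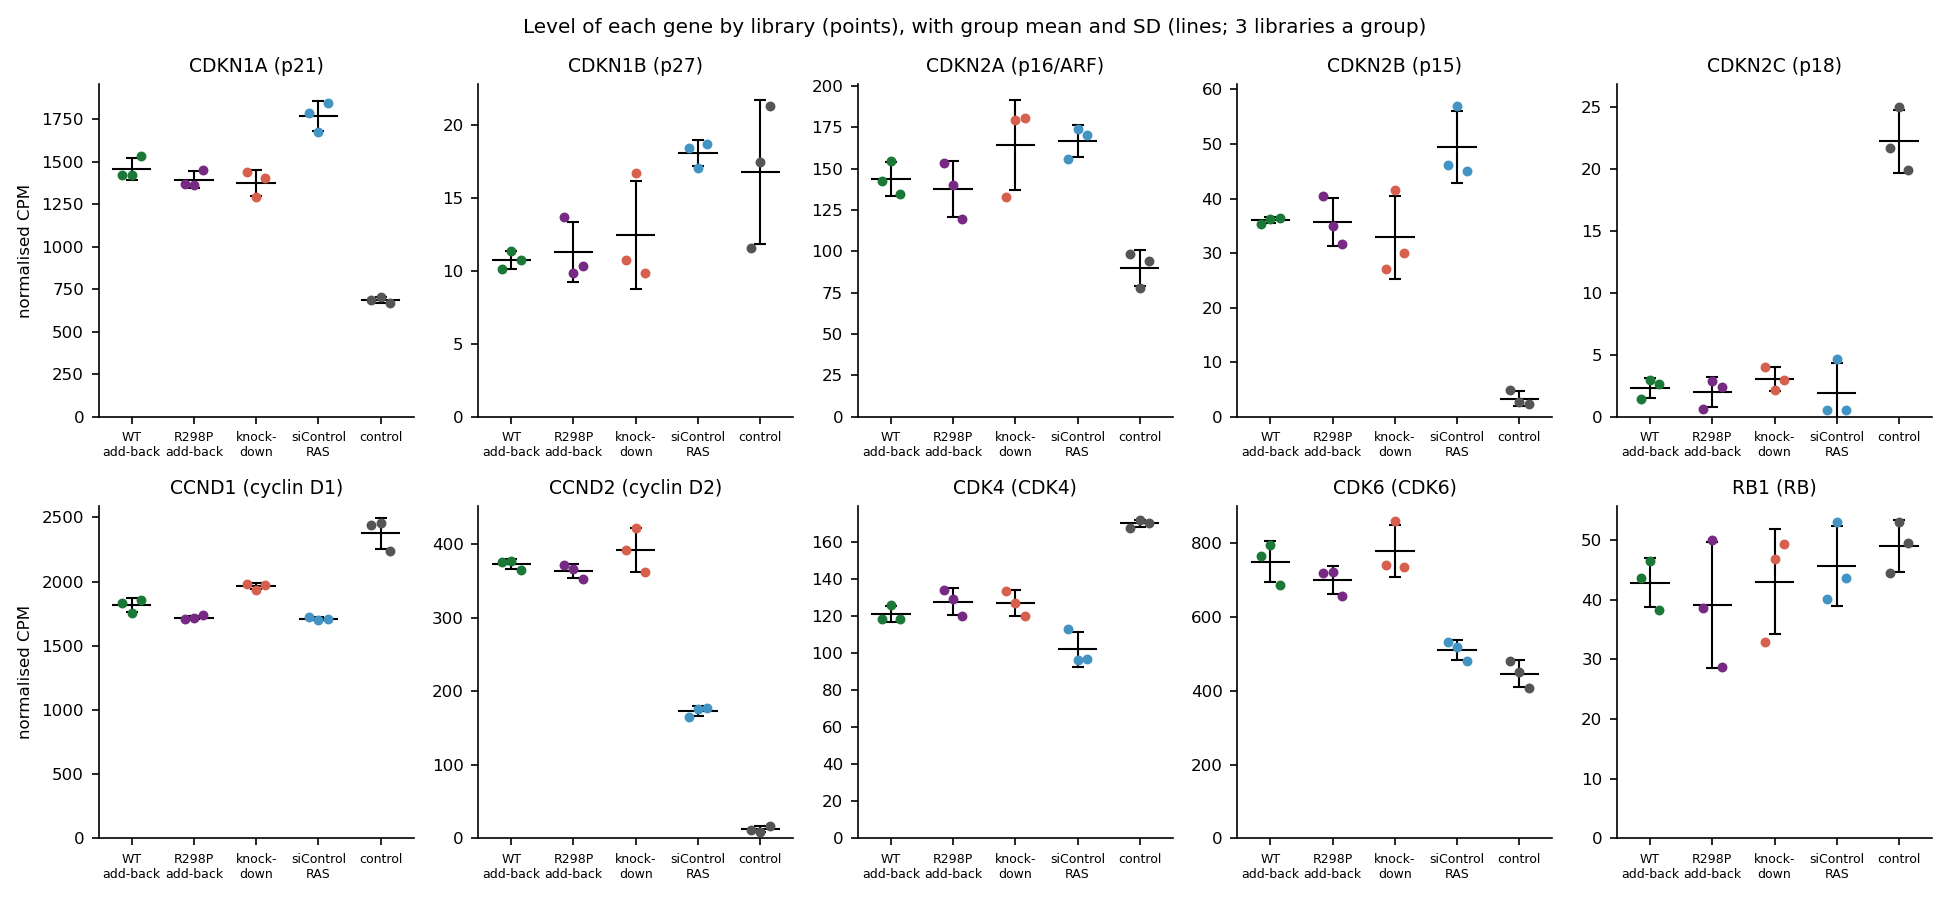
Normalised CPM (vertical axis, from 0) of the 10 genes in wild-type add-back, R298P add-back, knockdown, siControl RAS and control libraries; points are libraries, horizontal lines group means and bars 1 SD (n = 3). CCND2 stood at 362.8 to 422.4 CPM in knockdown, 165 to 177 CPM in siControl RAS and 8.89 to 16.8 CPM in control libraries, and CDKN2C was below 5 CPM in every RAS library.

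The knockdown comparison asks what METTL14 depletion did to these genes in RAS cells. The drivers were higher and 2 of the inhibitors lower: CCND2, CDK6, CDK4 and CCND1 were called higher, CDKN1A and CDKN2B lower, and CDKN2A, CDKN1B, CDKN2C and RB1 were not called. CCND2 moved most among the called genes, 2.27-fold above siControl RAS cells, where it already lay 13.9-fold above control. With 4 genes higher and 2 lower, 6 of 10 were called, against 7.47% of all genes higher and 8.06% lower (15.5% in both directions). Libraries did not overlap for 7 of the 10 genes, the 6 called ones and CDKN1B, against 30% of all genes. The median size of change was 0.45 for the 10 genes and 0.28 for all genes. The count was 6 under each alternative scaling, filter and tool; leaving out 1 library gave 4 to 6.

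CCND2 had 392.4, 422.4 and 362.8 CPM in knockdown libraries, against 165, 176.5 and 177 CPM in siControl RAS libraries. The change was 1.18 ± 0.094 (adjusted p = 3.80e-11) and stayed between 1.13 and 1.25 with each of the 6 libraries left out in turn. CDK6 had 741.3, 861.2 and 736.2 CPM in knockdown libraries, against 532.9, 519.9 and 481.1 CPM in siControl RAS libraries. It rose 1.52-fold (adjusted p = 7.54e-08), a larger fitted change than the 0.19 between siControl RAS and control. CCND1 had 1980, 1938 and 1976 CPM in knockdown libraries, against 1727, 1700 and 1710 CPM in siControl RAS libraries (0.20 ± 0.051, adjusted p = 0.00510). CDK4 had 133.9, 127.2 and 120 CPM in knockdown libraries, against 113.2, 96.5 and 97.1 CPM in siControl RAS libraries. The groups did not overlap (0.31, adjusted p = 0.0144), but CDK4 was not called without siControl RAS replicate 2 (0.27, adjusted p = 0.0819) or 3 (0.28, 0.0718) or knockdown replicate 1 (0.27, 0.0657).

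CDKN1A had 1441, 1294 and 1404 CPM in knockdown libraries, against 1788, 1676 and 1848 CPM in siControl RAS libraries. It fell 1.28-fold (log2 change -0.36 ± 0.057, adjusted p = 1.13e-05) and was called without any 1 of the 6 libraries. CDKN2B had 27.02, 41.5 and 30.04 CPM in knockdown libraries, against 46.2, 57 and 45.1 CPM in siControl RAS libraries. It fell by 0.58 on the log2 scale (adjusted p = 0.0237), and the call was lost without siControl RAS replicate 2 (-0.47, adjusted p = 0.145), knockdown replicate 1 (-0.46, 0.128) or knockdown replicate 3 (-0.51, 0.111). Its level in knockdown cells still lay 9.80-fold above control by the fitted change (adjusted p = 7.76e-14).

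CDKN2A had 132.7, 179.2 and 180.4 CPM in knockdown libraries, against 155.8, 174 and 170.2 CPM in siControl RAS libraries. Knockdown replicate 1 was below and the other 2 above all siControl RAS libraries, and the difference was -0.02 with a 95% interval of -0.24 to 0.21 (adjusted p = 0.945). It was 0.11 without knockdown replicate 1, 0.01 without siControl RAS replicate 2 and 0.01 with upper-quartile factors. CDKN1B had 10.8, 16.7 and 9.85 CPM in knockdown libraries, against 18.4, 17.1 and 18.7 CPM in siControl RAS libraries. All knockdown libraries lay below, yet the gene was not called (-0.53, 95% interval -1.05 to -0.01, unadjusted p = 0.0457, adjusted p = 0.178; edgeR). CDKN2C had 4.06, 2.16 and 2.96 CPM in knockdown libraries, against 0.545, 4.68 and 0.535 CPM in siControl RAS libraries. Replicate 2 of siControl RAS cells decided that value: the difference was 0.71 with it (adjusted p = 0.518) and 2.44 without it (adjusted p = 0.00698), on 52 counts in the knockdown group and 32 in the siControl RAS group. RB1 had 32.9, 46.8 and 49.2 CPM in knockdown libraries, against 40.2, 53.02 and 43.7 CPM in siControl RAS libraries, which overlapped (-0.08, 95% interval -0.42 to 0.27). That difference was 0.08 without knockdown replicate 1 and 0.04 without siControl RAS replicate 2.

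**Figure D2:**
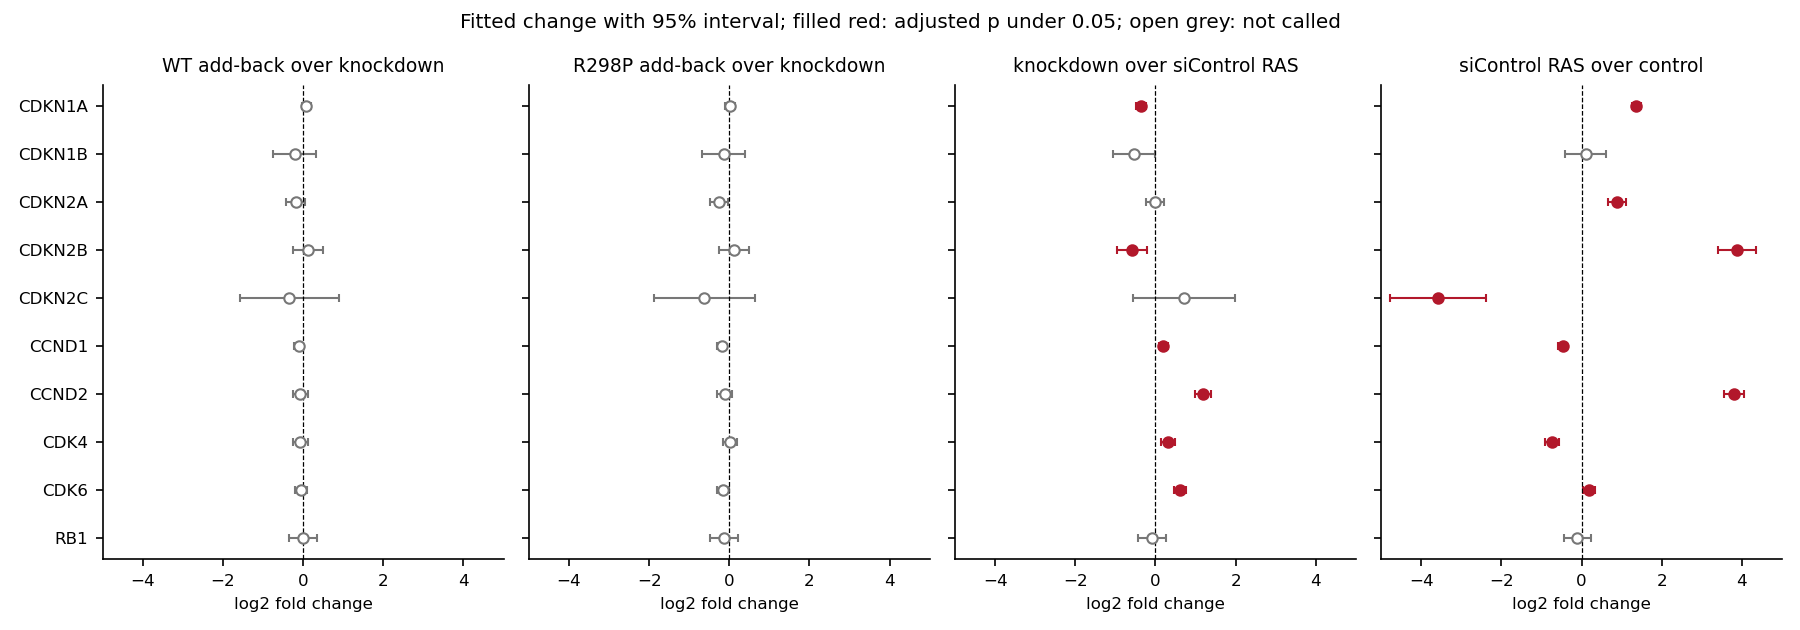
Fitted log2 fold change (horizontal axis) with its 95% interval for each of the 10 genes (vertical axis) in 4 comparisons; filled red points have an adjusted p under 0.05 and open grey points do not. CCND2 is at 1.18 for knockdown over siControl RAS and 3.80 for siControl RAS over control, and no gene is called for either add-back over knockdown.

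The add-back comparisons ask whether METTL14, wild type or R298P, returned these genes toward their level in siControl RAS cells. METTL14 RNA itself lay far above its siControl RAS mean of 21.98 CPM in both add-backs. The means also differed, at 545.4 CPM with wild type and 945.4 CPM with R298P, and the part of these levels was not tested. None of the 10 genes was called for either add-back against knockdown by edgeR, where 0.621% of all genes were called for wild type and 1.09% for R298P. At an unadjusted p under 0.05 there was 1 gene for wild type (CCND1) and 3 for R298P (CCND1, CDKN2A and CDK6). Libraries did not overlap for 1 gene with wild type and 2 with R298P, against 13% and 15% of all genes. DESeq2 and limma-voom called 0 each for wild type and 1 each for R298P (CCND1). The background of these comparisons is low, so a count of 0 in 10 genes is close to it.

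CCND2 had 375.5, 377.3 and 364.9 CPM in wild-type add-back libraries and 372.3, 365.6 and 352.6 CPM in R298P add-back libraries, against 392.4, 422.4 and 362.8 CPM in knockdown libraries. The differences were -0.08 (95% interval -0.26 to 0.11) for wild type and -0.11 (-0.30 to 0.08) for R298P, so a fall the size of the rise of 1.18 lay outside both intervals. CDKN1A had 1422, 1424 and 1533 CPM in wild-type add-back libraries and 1370, 1362 and 1454 CPM in R298P add-back libraries, against 1441, 1294 and 1404 CPM in knockdown libraries. Both add-backs overlapped knockdown, at 0.08 (-0.03 to 0.20) and 0.02 (-0.10 to 0.13), where a return to siControl RAS cells would need 0.36. For R298P the sign turned without knockdown replicate 2 or R298P replicate 3.

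CCND1 was the nearest to a call. It had 1835, 1757 and 1858 CPM in wild-type add-back libraries and 1706, 1717 and 1736 CPM in R298P add-back libraries, against 1980, 1938 and 1976 CPM in knockdown libraries. Neither add-back overlapped knockdown, at -0.11 (unadjusted p = 0.0325, adjusted p = 0.590; edgeR) for wild type and -0.19 (adjusted p = 0.0519) for R298P. For R298P the adjusted p ran from 0.00365 to 0.210 over the alternatives, below the threshold with DESeq2 (0.00365), limma-voom (0.0101), upper-quartile factors (0.0457), no robust option (0.0480) and the replicate number as a block (0.0301). The difference between the add-backs themselves was 0.08 (95% interval -0.02 to 0.18, adjusted p = 1), so the data do not show that CCND1 answered one form and not the other.

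The remaining genes lay within or near the knockdown range. CDK6 had 764.9, 796.5 and 688.4 CPM in wild-type add-back libraries and 720.1, 723.7 and 656.7 CPM in R298P add-back libraries, against 741.3, 861.2 and 736.2 CPM in knockdown libraries. R298P libraries were all below knockdown, at -0.16 (95% interval -0.30 to -0.01, adjusted p = 0.513). CDKN2A had 142.7, 154.9 and 134.5 CPM in wild-type add-back libraries and 153.5, 140 and 119.6 CPM in R298P add-back libraries, against 132.7, 179.2 and 180.4 CPM in knockdown libraries (-0.19, adjusted p = 0.757, and -0.25, adjusted p = 0.452). CDKN2B had 35.4, 36.2 and 36.5 CPM in wild-type add-back and 40.4, 34.9 and 31.6 CPM in R298P add-back libraries. Its differences from knockdown were 0.13 (95% interval -0.25 to 0.50) and 0.12 (-0.26 to 0.49). For CDK4 these differences were -0.07 and 0.01, for RB1 -0.01 and -0.14, for CDKN1B -0.22 and -0.14 and for CDKN2C, the gene with the fewest counts, -0.34 and -0.62. Between wild type and R298P no gene of the 10 was called (edgeR, 0 also at an unadjusted p under 0.05; DESeq2 and limma-voom 0 each), with 0.0222% of all genes called. Libraries did not overlap for 1 gene, CCND1, against 11.7% of all genes. The 95% interval of that difference was within 0.40 on either side of 0 for 7 of the genes, and wider for CDKN1B (-0.62 to 0.47), CDKN2C (-1.01 to 1.57) and RB1 (-0.22 to 0.48).

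The add-back groups were also set against siControl RAS cells. Wild-type add-back cells had 2 of the 10 genes called higher and 1 lower (6.32% and 6.67% of all genes; 13% in both directions), and R298P add-back cells had 3 higher and 1 lower (6.27% and 7.14%; 13.4%). Libraries did not overlap for 8 genes with wild type and 7 with R298P, against 28.7% and 29.9% of all genes. CCND2 was 1.11 higher with wild type and 1.07 higher with R298P, CDK6 0.55 and 0.45 higher, and CDKN1A lower, at -0.28 and -0.34, all called. CDK4 was 0.32 higher with R298P (adjusted p = 0.0129), a call lost without siControl RAS replicate 2 (0.28, 0.0760) or 3 (0.29, 0.0642) or R298P replicate 1 (0.29, 0.0703). With wild type CDK4 was 0.24 higher and not called (adjusted p = 0.0740), but called without siControl RAS replicate 1 (0.32, 0.0312) and with upper-quartile factors (0.27, 0.0417). CDKN2B stood at -0.45 in wild-type and -0.47 in R298P add-back cells, not called (adjusted p = 0.0993 and 0.0870), with all libraries below the siControl RAS range. CDKN1B stood at -0.75 and -0.67, likewise below that range and not called (adjusted p = 0.0528 and 0.0850). CDKN2A stood at -0.21 and -0.27, also below that range (adjusted p = 0.251 and 0.109). CCND1 differed by 0.09 with wild type and 0.01 with R298P (adjusted p = 0.320 and 0.966). CDKN2C was not called in either, at 0.37 and 0.09, but without siControl RAS replicate 2 it was 2.10 higher with wild type (adjusted p = 0.0301). These comparisons share the siControl RAS libraries with the knockdown comparison.

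Compared with control, each group with the METTL14 siRNA gave 5 genes called higher and 3 lower, with 36% of all genes called for knockdown, 37% for wild-type add-back and 37.4% for R298P add-back. By direction the background was 19.2% higher and 16.7% lower for knockdown, 19.9% and 17.2% for wild type and 20.1% and 17.3% for R298P. CDKN1A, CDKN2A, CDKN2B, CCND2 and CDK6 were higher and CDKN2C, CCND1 and CDK4 lower in each, while CDKN1B and RB1 were not called. These comparisons share the control libraries. CCND2 lay 4.91 above control with wild-type add-back, 4.87 with R298P add-back and 4.98 with knockdown, on the log2 scale. CDK6 lay 0.75, 0.65 and 0.80 above control in that order, all called. CDKN1B stood at -0.64, -0.56 and -0.42 against control in that order, and was called without control replicate 1 for wild type (-0.85, adjusted p = 0.0146) and R298P (-0.78, 0.0250). RB1 stood at -0.19, -0.32 and -0.18 in that order, and was called for R298P without its replicate 2 (-0.53, adjusted p = 0.0246).

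Ordered by level, the 10 genes fell into few distinct steps. For CCND2 the knockdown and both add-back groups (363.5 to 392.5 CPM) did not differ from each other by the test, and stood above siControl RAS cells (172.8 ± 6.81 CPM; SD, n = 3), which stood above control (12.4 ± 4.02 CPM). CDK6 had the same order of steps, from 700.2 to 779.5 CPM over siControl RAS cells at 511.3 ± 27 CPM and control at 447 ± 36.4 CPM, the last step being the one that depends on single libraries. CDKN1A was highest in siControl RAS cells (1771 ± 87.2 CPM), then 1379 to 1460 CPM in the 3 groups with the METTL14 siRNA, then control (686.5 ± 15.8 CPM). For CDKN2A and CDKN2B no neighbours differed by the test within the RAS groups, and all 4 RAS groups stood above control. For CDKN2C, CCND1 and CDK4 control was highest, and no neighbours within the RAS groups were called different, although for CCND1 knockdown against wild-type add-back, and wild-type against R298P add-back, did not overlap, nor did wild-type add-back and siControl RAS cells for CDK4. CDKN1B and RB1 showed no called step. Groups that are not neighbours did differ within the RAS groups for some of these genes. Knockdown against siControl RAS was called for CCND1, CDK4 and CDKN2B, and R298P add-back against siControl RAS for CDK4. Of these, the calls on CDK4 and CDKN2B depend on single libraries.

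The rest of the pathway was read from 8 lists of 109 genes in all, of which every symbol matched and 104 were tested. Counts in these lists are read against the share of all genes called, which was 24% higher and 21.9% lower for siControl RAS over control and 7.47% higher and 8.06% lower for knockdown over siControl RAS. E2F targets of DNA replication were the one list of the 8 in which every tested gene was called one way: all 18 fell in siControl RAS cells against control (median -2.60, all genes -0.004), led by GINS2 (-4.88), a subunit of the replicative helicase, RRM2 (-4.10), a subunit of ribonucleotide reductase, CDT1 (-3.79), which loads that helicase, and MCM5 (-3.77). In knockdown cells 6 of the 18 rose against siControl RAS cells and 12 were not called (7.47% of all genes rose; median 0.57, all genes -0.003), with GINS2 at 1.86, MCM5 at 1.43, CDC6, another helicase loader, at 1.34 and TK1, thymidine kinase, at 1.12. MKI67, the usual marker of division, had 38.4, 44.9 and 39.6 CPM in knockdown libraries, 9.54, 14.1 and 7.31 CPM in siControl RAS libraries and 285.4, 303.1 and 263.8 CPM in control. With add-back it had 33.8, 38.9 and 29.7 CPM for wild type and 24.3, 29.1 and 35.3 CPM for R298P, also above every siControl RAS library. CCND2 and CDK6 had their highest means in knockdown cells, where MKI67 lay far below control. For the add-backs against knockdown none of the 104 genes was called.

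Of 10 other G1/S cyclins, CDKs and inhibitors, 1 rose and 7 fell in siControl RAS cells against control (24% and 21.9% of all genes; median -1.82, all genes -0.004). CCNA2 (-4.63), CDKN3 (-4.47), CCNE2 (-4.33) and CDK1 (-4.21) fell, all genes that act at or after the entry into S phase. The riser was CDKN1C (p57), a further CIP/KIP inhibitor, at 1.17, whereas CDKN2D (p19), a further INK4 inhibitor, was not called (0.22, adjusted p = 0.397). In knockdown against siControl RAS cells CCNA2 (1.38), CDKN3 (1.34, with overlapping libraries) and CCND3 (0.36) rose, and CDK2, the kinase that p21 and p27 block, fell (-0.98), to 151.6 ± 9.25 CPM in knockdown cells, against 299.1 ± 13.5 CPM in siControl RAS cells. CDK2 was highest in control, at 765.3 ± 25.7 CPM, so the knockdown level lay further from control. It stood at 170.5 ± 25.6 CPM in wild-type and 155.9 ± 11.2 CPM in R298P add-back cells. Of 17 tested pocket proteins, E2F and DP factors and MuvB subunits, 3 rose and 7 fell in siControl RAS cells against control (24% and 21.9% of all genes), led by FOXM1 (-4.55), MYBL2 (-4.32), LIN9 (-3.02) and E2F1 (-2.94). The kin of RB parted: RBL1 (p107) fell (-2.20) and RBL2 (p130), the pocket protein of resting cells, rose (1.21), beside RB1 at -0.11. In knockdown cells MYBL2 (2.36) and E2F1 (1.39) rose and TFDP2 (-0.69), a DNA-binding partner of E2F factors, fell, with 14 not called.

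Of 22 tested regulators of the INK4 locus, 5 rose and 5 fell in siControl RAS cells against control (median -0.01), a number called that is near the 45.9% of all genes. Only the 4 called genes with the largest changes are named, which leaves out the 5 that rose. ID1, ID2 and ID3, which hold back the ETS and E proteins that activate p16, fell (-3.65, -3.02 and -2.14), as did EZH2, the Polycomb methyltransferase that silences the locus (-2.59). In knockdown against siControl RAS cells 3 rose and 6 fell, with ID3 at -1.63, ID1 at -1.11, TBX3, a repressor, at -0.79 and SMAD3 at 0.74. Of 9 tested inputs to p21, 3 rose and 3 fell in siControl RAS cells, with MDM4 at 1.36 and PCBP4 at -1.16, against 24% and 21.9% of all genes, and with 9 genes that count is no result about the list. In knockdown against siControl RAS cells 3 of the 9 rose, among them PCBP4 (0.64) and KLF6 (0.27), and 0 fell. Of 9 tested genes of p27 turnover and FOXO input, SKP2 (-0.998) and CKS1B (-2.08), parts of the ligase that marks p27 for breakdown, fell in siControl RAS cells, 0 rose and 7 were not called. None of the 9 was called for the knockdown. Of 11 genes of cyclin D turnover and input, 1 rose (TCF7L2, 0.63) and 3 fell (FOSL1, CRYAB and JUN, at -1.61, -1.57 and -0.45) in siControl RAS cells, and none was called for the knockdown. Of 8 genes of the CDK-activating kinase and CDK control, 3 rose and 2 fell in siControl RAS cells, with PKMYT1, an inhibitory kinase of CDK1, at -5.23 and CCNG2 at 1.14, and none was called for the knockdown.

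**Figure D3:**
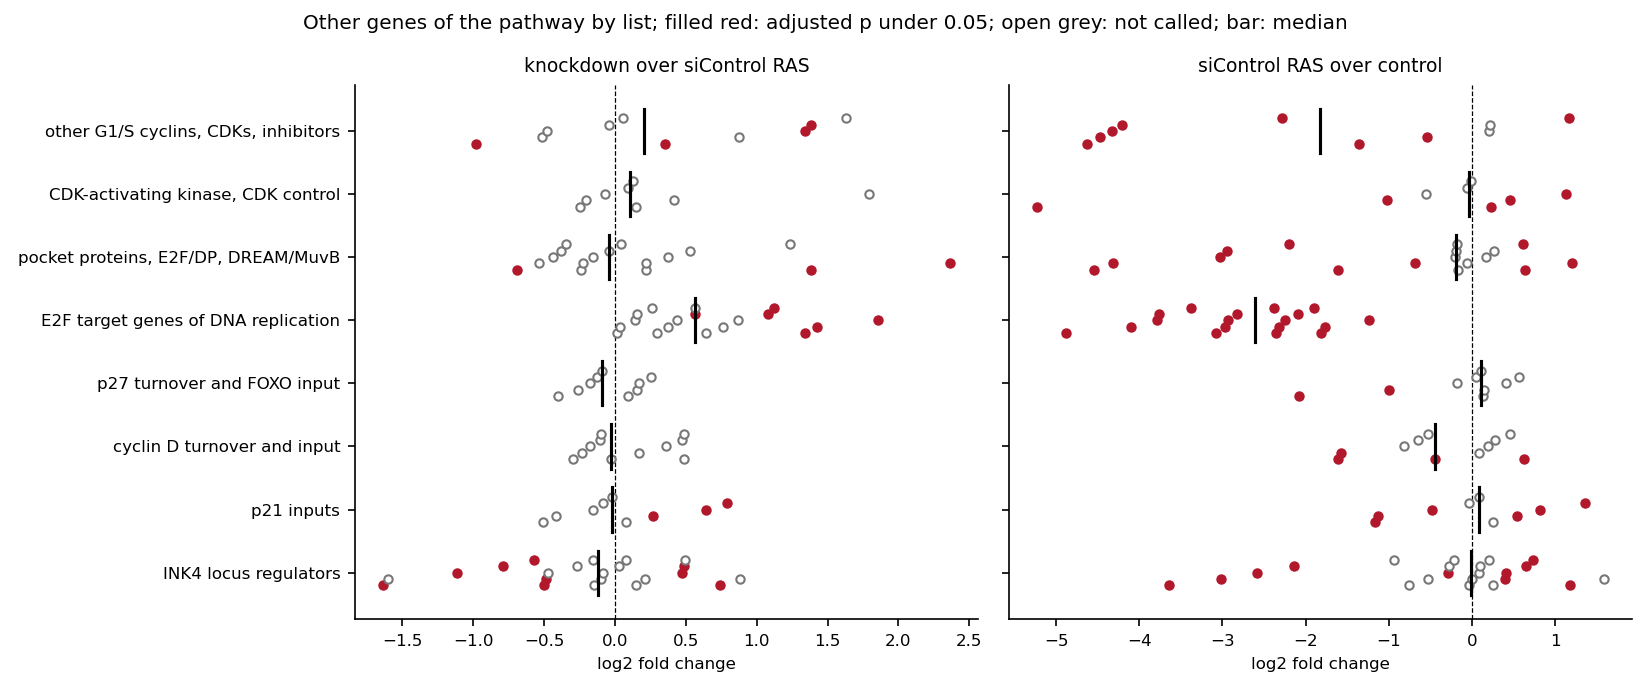
Log2 fold change (horizontal axis) of the tested genes in 8 lists of the pathway (vertical axis) for knockdown over siControl RAS and siControl RAS over control; points are genes, filled red with an adjusted p under 0.05 and open grey without, and bars are list medians. The 18 E2F targets lie below 0 for siControl RAS over control, with a median of -2.60, and have a median of 0.57 for knockdown over siControl RAS.

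The genes whose log2 CPM followed each member most closely over the 15 libraries are given as a description. The libraries fall into 5 groups, so a coefficient over them reflects the steps between groups, above all that between control and RAS cells. CCND2 went with CADM1, DRAM1 and PIEZO2 (Pearson's r 0.993, 0.993 and 0.992), CDKN1A with CDCP1, C1R and C11orf96 (0.995, 0.994 and 0.993) and CDKN2B with F3, KCNQ1OT1 and DPP4 (0.992, 0.989 and 0.988). CDKN2C went with PRPF4, HJURP and CCNA2 (0.949, 0.934 and 0.931), and CDK6 with ARID5B, CDC42EP3 and SMURF2 (0.972, 0.969 and 0.965). CDKN2A was followed by TLE4 (0.966), CCND1 by RAB10 (0.968), CDK4 by USP1 (0.968), RB1 by NDUFB3 (0.902) and CDKN1B by FAM167A (0.842), with the lowest top value for CDKN1B. Among the members themselves CDKN1A and CDKN2B had 0.962, CCND2 and CDK6 0.839, CDKN1A and CDK4 -0.933 and CDKN1B and CDK6 -0.666, each over the same 15 libraries.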

How the data were processed

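The authors deposited raw counts for 57736 Ensembl genes in each of the 15 libraries, made with Lexogen's QuantSeq method according to the labels' protocols. The submitters' processing notes list Bowtie2, RSEM 1.2.12 and hg19 but do not say what each did; all deposited counts are whole, and no source at hand names the annotation, the filters or the strand setting. QuantSeq reads 3′ ends, so counts do not scale with transcript length and isoforms with a shared 3′ end are counted together. Symbols came from a symbol table and GENCODE 29 through the Ensembl IDs (52301 matched, 90.6%); GENCODE 29 is on another build and served for names and exon overlaps.

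The main model was edgeR 4.0.16 under R 4.3.3, with 1 coefficient a group over all libraries, TMM factors, filterByExpr and a robust quasi-likelihood fit with 10 residual degrees of freedom. The tested 13516 genes hold 99.8% of the counts, and the biological coefficient of variation was 16.7%. All 10 pairwise comparisons were made. Standard errors and 95% intervals were derived from the fitted change and its F statistic. Permuting 3 libraries against 3 gives no exact p under 0.1, so no such test was used. On data simulated for knockdown over siControl RAS with 13052 genes, 63.8% of 47 genes changed 2-fold and 12.8% of 47 changed 1.5-fold were recovered. Few genes were changed in that simulation and its spread was an assumed one, whereas 2100 genes were called in the data. The shares therefore check the code and do not give the power of the real comparison. Alternatives were other scalings, filters and tools (DESeq2 1.42.0, limma-voom in limma 3.58.1), the 2 groups alone, the replicate block and leaving out each library. Libraries of a group differed beyond counting noise (chi-square per degree of freedom 3.21 to 7.13).

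The members, gene lists, motifs and tests were chosen with earlier results of these data known. Named were all members, METTL14 and MKI67, the genes most like each member, and up to 4 called genes a list in the main comparisons; CCND3, CDKN1C, CDKN2D, CDK2, RBL1, RBL2 and the genes with overlapping exons were named after their values were seen. Precision at low counts, as for CDKN2C, is limited by counting.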

Additional observations from a re-analysis of the deposited data

How the results depend on the processing

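Of 1600 values of single genes under the alternatives, 1534 kept their direction and side of the threshold, 15 lost and 19 gained a call, and 32 changed sign, all of them for differences not called. With upper-quartile factors CDKN2A in knockdown over siControl RAS was 0.013. Sign changes on leaving out 1 library, as ranges: for siControl RAS over control CDKN1B -0.105 to 0.314; for knockdown over siControl RAS CDKN2A -0.085 to 0.111 and RB1 -0.178 to 0.078; for wild-type add-back over knockdown CDKN1B -0.363 to 0.061, CDK6 -0.102 to 0.021 and RB1 -0.164 to 0.095; for R298P add-back over knockdown CDKN1A -0.028 to 0.048, CDKN1B -0.304 to 0.138, CDKN2B -0.004 to 0.322, CDK4 -0.032 to 0.053 and RB1 -0.349 to 0.036; for wild type over R298P CDKN1B -0.166 to 0.089, CDKN2A -0.026 to 0.149, CDKN2B -0.065 to 0.113, CDKN2C -0.167 to 0.683 and RB1 -0.046 to 0.339; for wild type over siControl RAS CDKN2C -0.118 to 2.095 and RB1 -0.173 to 0.033; and for R298P over siControl RAS CDKN2C -0.395 to 1.82.

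Of the 10 genes, R298P over knockdown gave 1 call instead of 0 with upper-quartile factors, DESeq2, limma-voom, the fit without the robust option, the replicate block and, in an alternative added after seeing the data, p adjusted over all 10 comparisons together; wild type over siControl RAS gave 5 instead of 3 when only these 2 groups were fitted. Leaving out 1 library gave 7 to 8 calls for siControl RAS over control, 4 to 6 for knockdown over siControl RAS, 3 to 4 for each add-back over siControl RAS, 8 for knockdown over control, 8 to 9 for each add-back over control and 0 for the others. Over all genes, wild type over R298P gave 3 calls, against 14 with no filter, 12 with DESeq2, 5 with limma-voom, 5 with only these groups and 138 with joint adjustment, and 1 to 2 on leaving out a library. R298P over knockdown gave 148, against 225 with DESeq2, 486 with joint adjustment and 90 to 140 on leaving out a library, and wild type over knockdown 84, against 335 with joint adjustment and 55 to 70. The cause was not tested.

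The replicate numbers pair no libraries by the labels. Deviations from the group means correlated at -0.0541 to 0.0681 in the 30 same-numbered pairs. Correlations with libraries of other groups were also averaged by replicate number. For 8 of 15 libraries that mean was highest at their own number, out of 3 possible numbers. With the replicate block the calls among the 10 genes changed in R298P over knockdown alone (CCND1 gained, adjusted p = 0.0301). Depth limits CDKN2C above all, with 32 to 52 counts over each RAS group.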
